A study of Homo sapiens with 7 samples.

Results

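Peaks of 5 chromatin immunoprecipitation sequencing (ChIP-seq) lists were described at 8 imprinted genes: KCNQ1OT1, GNAS, SNRPN, PEG10, MEST, PEG3, PLAGL1 and H19. A peak was a member when it overlapped the hg19 span of a gene, widened by 5 kb either side, by at least 1 bp. There were 65 such peaks among the 132744 of the 5 lists on chromosomes 1 to 22 and X, and the widened spans held 369 kb. Every library came from BJAB, an established line of human B cells that the labels trace to Burkitt's lymphoma, at multiple passages and with no treatment named. The targets were RNA polymerase II (Pol II, antibody 8WG16), SPT5, a subunit of the DSIF complex that acts in pausing and elongation, TRIM28, O-GlcNAcase (OGA, also called NCOAT), which removes O-GlcNAc from proteins, and O-GlcNAc itself (antibody RL2). Each target had 1 library with 1 peak list and no replicates, so no difference between targets was tested, and the mouse and rabbit IgG libraries were not analysed here. The lists hold positions and no gene names, so the B-cell identity of the line was not checked against marker genes. They also do not separate the parental alleles.

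Genomic imprinting is the expression of a gene from the maternal or the paternal copy according to marks set in the germline. At most imprinted clusters a differentially methylated imprinting control region carries DNA methylation on a single parental allele. TRIM28, a co-repressor without sequence-specific DNA binding of its own, is brought to methylated control regions by KRAB zinc finger proteins such as ZFP57, whose core motif is TGCCGC, and helps to maintain their methylation in the embryo. The unmethylated allele is the one from which Pol II transcribes the paternally expressed transcripts KCNQ1OT1, SNRPN, PEG3, PEG10, MEST and PLAGL1.

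Starts listed by RefSeq show where alternative promoters of these genes lie. The promoter table (build GRCh38.p14, 250 bases before to 50 after each listed start) held 21 windows for 5 of the 8 genes: MEST, SNRPN, GNAS, H19 and PLAGL1. PEG3, PEG10 and KCNQ1OT1 had no entry. Coordinates were not converted between builds, so distances between listed starts are in GRCh38 and distances between peaks are in hg19. A set of 6 windows is printed 5′ to 3′ on the gene's strand because peaks, or their absence, at these genes are described against them. Capitals mark TGCCGC or its reverse complement GCGGCA, searched on both strands, and neighbouring matches may overlap.
MEST, listed start 1 of 5, chr7:130485925-130486224, plus strand: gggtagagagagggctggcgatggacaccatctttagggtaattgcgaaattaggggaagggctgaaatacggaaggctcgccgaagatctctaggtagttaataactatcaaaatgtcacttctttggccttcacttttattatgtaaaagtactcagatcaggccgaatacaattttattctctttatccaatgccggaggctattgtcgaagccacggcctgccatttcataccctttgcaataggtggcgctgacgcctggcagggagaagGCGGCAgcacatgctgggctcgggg
MEST, listed start 5 of 5, chr7:130491835-130492134, plus strand: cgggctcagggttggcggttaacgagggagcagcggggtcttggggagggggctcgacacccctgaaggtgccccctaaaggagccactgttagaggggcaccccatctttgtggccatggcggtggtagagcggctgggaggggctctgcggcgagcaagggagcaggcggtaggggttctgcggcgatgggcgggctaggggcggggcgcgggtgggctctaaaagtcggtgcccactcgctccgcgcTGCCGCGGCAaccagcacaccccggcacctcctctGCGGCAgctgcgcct
SNRPN, listed start 3 of 4, chr15:24954737-24955036, plus strand: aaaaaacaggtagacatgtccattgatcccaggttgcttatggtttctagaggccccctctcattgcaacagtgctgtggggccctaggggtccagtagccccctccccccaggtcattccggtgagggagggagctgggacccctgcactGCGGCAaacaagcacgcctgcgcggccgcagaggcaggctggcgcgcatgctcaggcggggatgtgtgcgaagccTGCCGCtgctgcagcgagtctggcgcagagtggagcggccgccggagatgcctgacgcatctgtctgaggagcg
SNRPN, listed start 4 of 4, chr15:24956050-24956349, plus strand: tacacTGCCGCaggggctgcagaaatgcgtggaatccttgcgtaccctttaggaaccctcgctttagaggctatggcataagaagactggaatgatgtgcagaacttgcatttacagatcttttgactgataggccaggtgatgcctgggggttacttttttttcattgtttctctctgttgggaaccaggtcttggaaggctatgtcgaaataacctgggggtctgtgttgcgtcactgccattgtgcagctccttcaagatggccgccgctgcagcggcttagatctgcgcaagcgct
GNAS, listed start 6 of 6, chr20:58888930-58889229, plus strand: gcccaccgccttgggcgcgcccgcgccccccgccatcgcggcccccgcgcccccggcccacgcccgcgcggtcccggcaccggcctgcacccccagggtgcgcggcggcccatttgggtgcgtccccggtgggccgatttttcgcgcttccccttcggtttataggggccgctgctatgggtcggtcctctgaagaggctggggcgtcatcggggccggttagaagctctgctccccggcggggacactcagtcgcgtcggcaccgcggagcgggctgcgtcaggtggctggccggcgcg
PLAGL1, listed start 3 of 5, chr6:144008210-144008509, minus strand: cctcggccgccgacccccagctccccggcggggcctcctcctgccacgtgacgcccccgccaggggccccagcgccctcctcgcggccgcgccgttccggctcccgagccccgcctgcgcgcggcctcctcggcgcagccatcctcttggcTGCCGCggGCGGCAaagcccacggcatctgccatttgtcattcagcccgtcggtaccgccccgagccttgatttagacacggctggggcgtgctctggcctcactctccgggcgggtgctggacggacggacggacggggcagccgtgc

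TGCCGC was found in 8 of the 21 windows, against 16.7% of all 35116 windows of the table. MEST held it in 4 of 5 windows, SNRPN in 2 of 4, GNAS in 1 of 6, PLAGL1 in 1 of 5 and H19 in 0 of 1. Windows of close starts share bases, so these are not separate occurrences. The YY1 core GCCATNTT, also searched on both strands, was in 2 of the 21 windows (SNRPN last, PLAGL1 last), against 6.58% of all. The printed GNAS window held 43 CpG dinucleotides and the printed PLAGL1 window 39, where the median window of the table held 14. These were the highest counts of the 21 windows. Other windows lay below that median, down to 10 at GNAS and 2 at PLAGL1 and SNRPN, and the H19 window held 6. A match is a string of letters only, and none was measured as a bound site here.

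Occupancy differed widely among the 8 genes. GNAS had 28 of the 65 peaks and KCNQ1OT1 21, together with all 5 and 4 of the 5 targets. SNRPN and PEG10 had 5 peaks each, MEST 3, PLAGL1 2, PEG3 1 and H19 none. These counts are not divided by the length of the widened spans. That length ran from 12.7 kb at H19 to 81.5 kb at GNAS, with 69.5 kb at KCNQ1OT1 and 78.1 kb at PLAGL1. By target the members were 1 OGA, 5 O-GlcNAc, 12 Pol II, 15 TRIM28 and 32 SPT5 peaks. SPT5 and TRIM28 each reached 6 genes, O-GlcNAc 4, Pol II 3 and OGA 1. Within 1 kb of the start of the span, SPT5 had a peak at 4 genes (KCNQ1OT1, SNRPN, PEG10, MEST), TRIM28 at 3 (KCNQ1OT1, PEG10, MEST), Pol II at 2 (KCNQ1OT1, SNRPN), O-GlcNAc at 2 (KCNQ1OT1, MEST) and OGA at none.

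**Figure D1:**
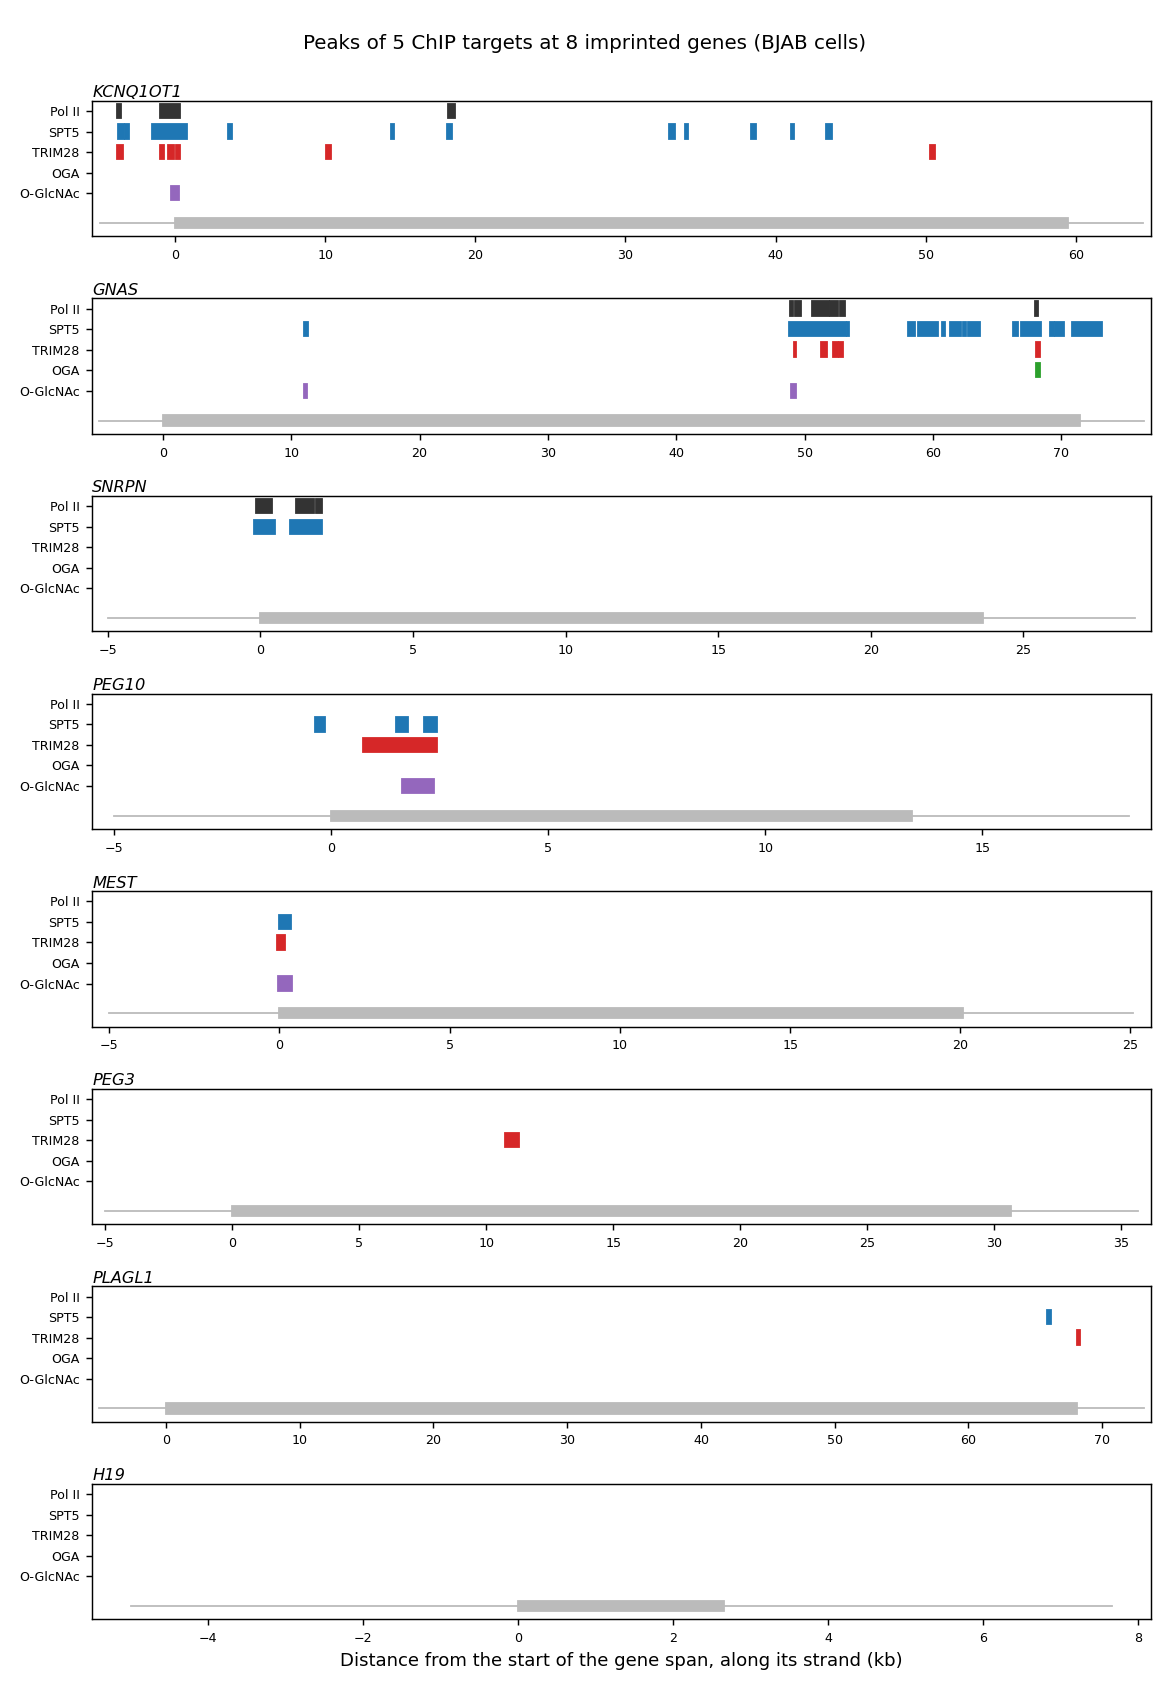
Peaks of the 5 targets (rows) at each of the 8 genes, drawn against the distance in kb from the start of the gene span along its strand; the grey bar is the span, the thin lines are the 5 kb either side, and each peak is drawn at its width with a thin outline that keeps narrow peaks visible. KCNQ1OT1 and GNAS hold 49 of the 65 peaks, the first around its start and along its body and the second mostly from about 49 kb onward, and the H19 panel is empty.

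The start of KCNQ1OT1, the long antisense RNA that begins within an intron of KCNQ1 and whose promoter is the control region of that cluster, carried 4 of the 5 targets. A 2367 bp SPT5 peak (chr11:2720401-2722767) had a fold enrichment of 14.5, the deposited ratio of signal in a peak over a background whose source the labels do not name. This stood at percentile 98.6 of the SPT5 list, meaning that 98.6% of SPT5 peaks had the same or a lower fold enrichment. Fold enrichments are compared only within their own list. The Pol II peak (chr11:2720903-2722218) had a fold enrichment of 10.9, percentile 93.7. The summits of Pol II and SPT5 lay 47 and 42 bp after the start of the span, 5 bp apart. The O-GlcNAc peak (chr11:2720951-2721505) had a fold enrichment of 4.61, percentile 65.8, with its summit at −150 bp, where negative values lie upstream of the start.

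TRIM28 was present at this start only as low peaks. The low peaks, 3 in number, lay under the SPT5 peak, at chr11:2721922-2722247 (fold enrichment 2.11, percentile 2.99), chr11:2721283-2721676 (2.21, percentile 4.80) and chr11:2720867-2721170 (2.39, percentile 9.06). Their summits were at −728, −319 and 189 bp, so they flanked the Pol II and SPT5 summits on both sides. Their −log10 q values were 2.21, 3.91 and 4.13, so none of them passed the stricter value of 5. The TRIM28 peaks away from the start were higher: chr11:2724708-2725086 (2.95, percentile 29.7), at −3.66 kb and overlapped by Pol II and SPT5, chr11:2710825-2711144 (3.33, percentile 44.7), 10.3 kb into the gene, and chr11:2670647-2670965 (7.22, percentile 92.3), 50.4 kb into the gene. The last peak, near the 3′ end of the span, was the highest TRIM28 peak of the locus, and no other list overlapped it.

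Beyond the first kb, the body of KCNQ1OT1 carried 8 SPT5 peaks, spread from 3.69 to 43.7 kb. They were 195 to 409 bp wide with fold enrichments of 2.23 to 2.87, and 7 of the 8 were overlapped by no other list, as were 59.0% of all SPT5 peaks. Pol II had 1 peak there, 18.5 kb in (chr11:2702602-2703031, fold enrichment 2.57, percentile 6.86). The body thus held many narrow, low SPT5 peaks and a single low Pol II peak. KCNQ1 is transcribed across the same DNA from the other strand, and these lists carry no strand.

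SNRPN encodes the SmN protein of spliceosomal particles, is made from a transcript that also encodes SNURF, and starts at the imprinting centre of the Prader-Willi region. By fold enrichment it had the highest SPT5 peak of the 8 genes, and it had no TRIM28, OGA or O-GlcNAc peak. That SPT5 peak (chr15:25199851-25200549) had a fold enrichment of 19.4 and was number 84 of the 56040 SPT5 peaks by that measure. By −log10 p it was 179, below the highest SPT5 peaks of GNAS (259) and KCNQ1OT1 (257). The Pol II peak under it (chr15:25199921-25200446) had a fold enrichment of 9.80, percentile 89.9. Its summit lay 115 bp after the start of the span and that of SPT5 105 bp, 10 bp apart.

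A further SPT5 peak followed (chr15:25201062-25202105, fold enrichment 7.57, percentile 86.2), overlapped by 2 Pol II peaks. These were chr15:25201233-25201829 (5.35, percentile 55.4) and chr15:25201885-25202108 (3.46, percentile 26.6). The SPT5 summits at the start and downstream were 1236 bp apart, and the first Pol II summits of each group were 1489 bp apart. In the RefSeq table the third and last SNRPN starts, whose windows are printed above, lie 1313 bp apart. After these peaks the rest of the widened span, 26.6 kb, held no peak of any list. The nearest TRIM28 peak was 219 kb downstream of the start (fold enrichment 12.7, percentile 98.4), far outside the gene.

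GNAS encodes the stimulatory G protein alpha subunit, and its locus has alternative first exons with opposite imprinting, among them NESP55, XL alpha s and exon A/B. Its peaks did not lie at the start of the span. The first 45 kb held 2 peaks at a single place, 11 kb in: SPT5 at chr20:57425772-57426104 (fold enrichment 4.38, percentile 71.1) and O-GlcNAc at chr20:57425777-57426060 (2.29, percentile 6.51). The −log10 q of this O-GlcNAc peak was 1.32, beside 1.31 for the lowest O-GlcNAc peak anywhere. A stretch of 37.5 kb without any peak followed.

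From 48777 to 53211 bp after the start of the GNAS span, a single SPT5 peak of 4435 bp (chr20:57463572-57468006) covered 5 Pol II, 4 TRIM28 and 1 O-GlcNAc peak. Its fold enrichment of 18.9 made it number 106 of the 56040 SPT5 peaks. Pol II was highest at chr20:57464053-57464532 (15.1, percentile 99.0), 11 bp from the SPT5 summit and 49.5 kb from the start of the span. A broader Pol II peak of 1355 bp (chr20:57465352-57466706) had a fold enrichment of 10.4, percentile 92.0, with its summit 51.7 kb in. The other 3 Pol II peaks here had fold enrichments of 3.14 to 4.47. In the RefSeq table the last GNAS starts are 48.7 and 49.4 kb from the first, and the window of the last, which holds no TGCCGC, is printed above.

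TRIM28 was again low here. The 4 peaks had fold enrichments of 2.50 to 3.54, the highest at chr20:57466992-57467393 (percentile 51.4). Their summits fell near Pol II summits: 54, 51 and 36 bp from the nearest at the 3 downstream peaks, and 240 bp at the upstream one (chr20:57463954-57464160). That upstream TRIM28 peak and the O-GlcNAc peak beside it (chr20:57463751-57464138, fold enrichment 2.46, percentile 10.6) both had their summits upstream of the highest Pol II summit, O-GlcNAc by 318 bp.

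The 3′ part of GNAS, the body of the G protein alpha subunit transcript, carried a run of SPT5. Beyond 53 kb there were 12 SPT5 peaks, 195 to 2361 bp wide and 9861 bp in total, with fold enrichments of 1.97 to 7.91, and 11 of them were overlapped by no other list, against the 59.0% of all SPT5 peaks given above. The highest of these (chr20:57485598-57487958, percentile 87.2) lay across the 3′ end of the span. The other peak of the 12 lay at the only OGA site among the 8 genes. There, 68 kb in, SPT5 (chr20:57481656-57483201, 5.56, percentile 79.0), Pol II (chr20:57482731-57483010, 3.33, percentile 24.2), TRIM28 (chr20:57482842-57483105, 3.04, percentile 33.2) and OGA (chr20:57482846-57483132, 2.97, percentile 32.8) overlapped. The OGA and TRIM28 summits were 40 bp apart, those of OGA and SPT5 122 bp and those of OGA and Pol II 230 bp. No O-GlcNAc peak overlapped this OGA peak.

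**Figure D2:**
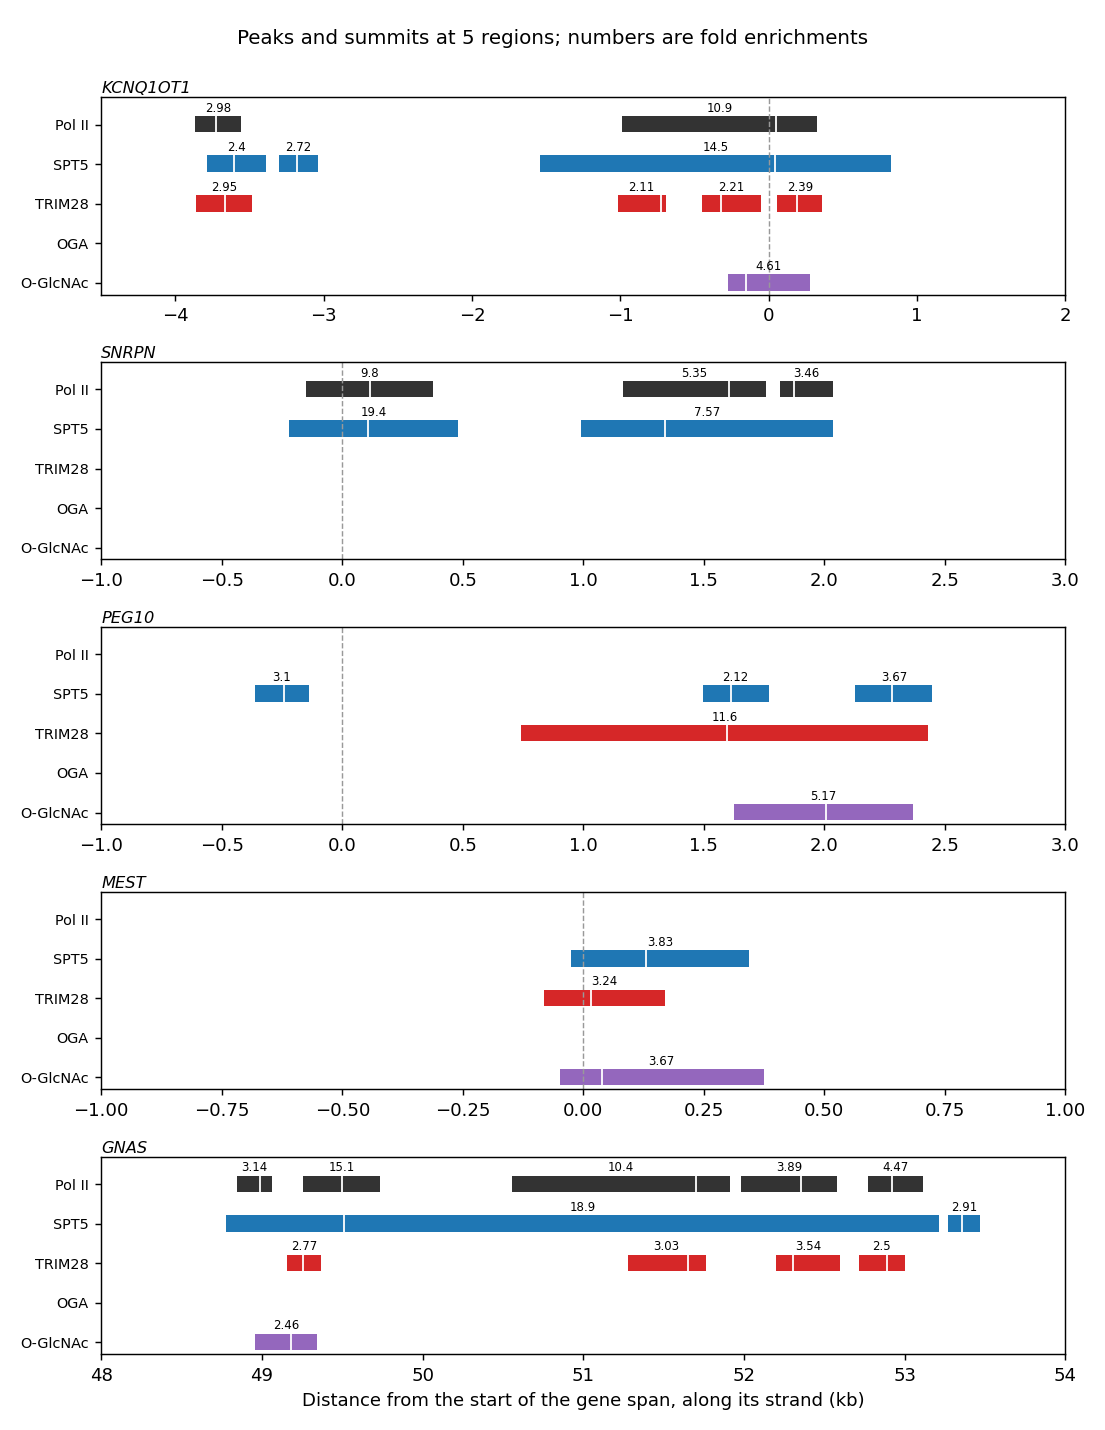
Peaks at the starts of KCNQ1OT1, SNRPN, PEG10 and MEST and at 48 to 54 kb of GNAS, against the distance in kb from the start of the span (dashed line); bars are peaks, white ticks are summits, and the number over each bar is its fold enrichment, comparable only within a row. Pol II and SPT5 summits lie 5 bp apart at KCNQ1OT1 and 10 bp at SNRPN, while PEG10 and MEST have TRIM28 and SPT5 but no Pol II.

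PEG10 encodes a protein derived from the gag and pol of a retrotransposon, and its promoter region lies between it and the imprinted gene SGCE. It had the highest and widest TRIM28 peak of the 8 genes and no Pol II peak. The TRIM28 peak (chr7:94286380-94288068, 1689 bp) had a fold enrichment of 11.6, percentile 97.9, with its summit 1598 bp into the gene. The median TRIM28 peak of the whole list was 304 bp wide with a fold enrichment of 3.5. The PEG10 peak was overlapped by 2 SPT5 peaks, chr7:94287132-94287406 (2.12, percentile 2.96) and chr7:94287766-94288085 (3.67, percentile 60.1), and by the highest O-GlcNAc peak of the 8 genes, chr7:94287264-94288005 (5.17, percentile 74.7). The summit of the first of these SPT5 peaks was 14 bp from that of TRIM28, and that of O-GlcNAc was 410 bp downstream of it. A separate SPT5 peak (chr7:94285273-94285498, 3.10, percentile 42) ended 139 bp before the start of the gene. The nearest Pol II peak was 146 kb away.

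MEST, an enzyme-like protein of the alpha/beta hydrolase family, carried the same 3 targets as PEG10, at the start itself. TRIM28 and O-GlcNAc were lower than at PEG10, and SPT5 was not. Its peaks overlapped one another at the start of the span. They were TRIM28 at chr7:130125964-130126216 (3.24, percentile 41.0), O-GlcNAc at chr7:130125997-130126420 (3.67, percentile 44.6) and SPT5 at chr7:130126021-130126389 (3.83, percentile 63.2). Summits were 16, 39 and 131 bp after the start. By −log10 p in place of fold enrichment the TRIM28 peak stood at percentile 62.9. The nearest Pol II peak was 44.7 kb upstream. The 24.7 kb that followed to the end of the widened span held no peak of any list. The listed MEST starts fall into 2 groups, the first and last of them 5910 bp apart, so the peaks were at 1 place while the RefSeq table lists starts at 2. The last window, with 3 matches of TGCCGC against 1 in the first, is the more CpG-rich, with 25 CpG against 13. Which group of starts the peaks lay at was not determined, since coordinates were not converted between builds. Occupancy of a control region was not determined either.

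PEG3, PLAGL1 and H19 had no peak of any target within 1 kb of their starts. PEG3, a zinc finger protein with a control region at its promoter, had a single TRIM28 peak (chr19:57340783-57341360, fold enrichment 5.69, percentile 86.2), 11.0 kb into the gene and overlapped by no other list. Its nearest Pol II, SPT5 and O-GlcNAc peaks were all 245 kb from its start. PLAGL1, a zinc finger transcription factor whose control region lies at the promoter it shares with the RNA HYMAI, had 2 peaks near its 3′ end. These were SPT5 at chr6:144263360-144263697 (2.71, percentile 22.9) and TRIM28 at chr6:144261234-144261430 (4.98, percentile 80.4), 66.1 and 68.2 kb from the start, the second just past the end of the span. The 70.8 kb from the SPT5 peak to the upstream limit, the start included, were free of peaks. H19, a maternally expressed long noncoding RNA whose control region lies upstream and is bound by CTCF on the maternal allele, had no peak in its widened span of 12.7 kb. The nearest peak of any list to the H19 start was an SPT5 peak 49.9 kb downstream (fold enrichment 7.29), and the nearest TRIM28 peak was 145 kb away. Depth of the libraries is unknown, and a region without a peak is one that did not pass the authors' threshold.

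**Figure D3:**
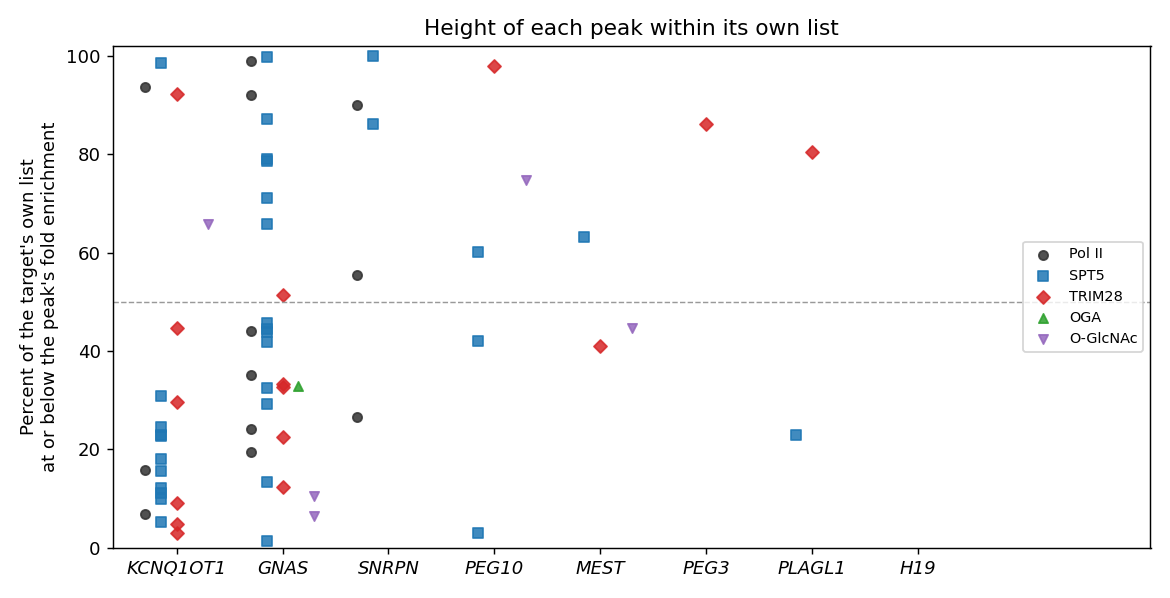
Each of the 65 peaks by gene (horizontal axis) and by the percent of its target's own list with the same or a lower fold enrichment (vertical axis); colour and shape give the target, and the dashed line is the list median. SPT5 peaks reach percentiles of 98.6, 99.8 and 99.9 at KCNQ1OT1, GNAS and SNRPN, TRIM28 reaches 97.9 at PEG10, and most other peaks lie under the line.

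Most peaks at these genes were lower than the median of their list. Percentiles above 50 were reached by 11 of 32 SPT5, 5 of 15 TRIM28, 5 of 12 Pol II, 2 of 5 O-GlcNAc and 0 of 1 OGA peaks. Median fold enrichments of the members and of the whole lists were 3.01 and 3.31 for SPT5, 3.04 and 3.5 for TRIM28, 4.18 and 4.90 for Pol II, and 3.67 and 3.88 for O-GlcNAc. The density of peaks was above that of the lists: 8.66 SPT5, 4.06 TRIM28, 3.25 Pol II and 1.35 O-GlcNAc peaks per 100 kb of widened span, against 1.90, 1.53, 0.675 and 0.314 per 100 kb between the first and last peaks of the chromosomes. That denominator includes gene-poor regions, and the difference was not compared with that at other genes. The densities are pooled over the 8 genes, and the excess did not hold at each. SPT5 had 17.2 peaks per 100 kb at GNAS, 15.8 at KCNQ1OT1, 12.8 at PEG10, 5.94 at SNRPN and 3.32 at MEST. It had 1.28 at PLAGL1 and none at PEG3 and H19. Pol II peaks came from GNAS, KCNQ1OT1 and SNRPN only.

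By fold enrichment, TRIM28 peaks fell into low ones with Pol II and mostly higher ones without it. The 9 TRIM28 peaks with Pol II, all at KCNQ1OT1 and GNAS, had fold enrichments of 2.11 to 3.54 (median 2.77). They are not independent, since they lay at 4 sites. A single SPT5 peak at GNAS covered 4 of them and another at KCNQ1OT1 covered 3. The 6 without Pol II, at PEG10, MEST, PEG3, PLAGL1 and the body of KCNQ1OT1, had 3.24 to 11.6 (median 5.34), so the ranges overlapped between 3.24 and 3.54. By −log10 p the split was less clear, with 4.57 to 13.4 for the 9 and 11.5 to 114 for the 6. The peaks of MEST, PEG3 and PLAGL1 and that 10.3 kb into KCNQ1OT1 lay in the shared part of these ranges. No other list overlapped 4 of the 6 peaks without Pol II. In the whole TRIM28 list the medians were 2.97 with Pol II and 3.82 without it, the same direction, and the values here are part of that list and add no independent support. SPT5 peaks had the opposite order: the 7 with Pol II ranged from 2.40 to 19.4 (median 7.57), and the 25 without it from 1.97 to 7.91 (median 2.87). The medians of the whole SPT5 list were 7.19 with Pol II and 3.01 without it.

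Overlap with the other targets was counted beside the share in each whole list. All 12 Pol II peaks were overlapped by SPT5 (exact 95% interval 73.5% to 100%), against 95.5% of all Pol II peaks. TRIM28 overlapped 7 of the 12 (58.3%) against 59.9%, O-GlcNAc 3 (25.0%) against 40.2%, and OGA 1 (8.33%) against 6.03%. Of the 32 SPT5 peaks, Pol II overlapped 7 (21.9%) against 29.1%, TRIM28 7 (21.9%) against 30.7%, O-GlcNAc 6 (18.8%) against 14.2%, and OGA 1 (3.12%) against 3.2%. All of these whole-list shares for Pol II and SPT5 peaks lay within the exact intervals of the members.

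For TRIM28 peaks, no excess of overlap over the whole list held under every way of counting. SPT5 overlapped 11 of 15 (73.3%, exact interval 44.9% to 92.2%) against 43.7%, and Pol II 9 of 15 (60.0%, 32.3% to 83.7%) against 28.6%. O-GlcNAc overlapped 5 (33.3%, 11.8% to 61.6%) against 13%, and OGA 1 (6.67%) against 5.12%. The peaks are not independent, since 4 lay under a single SPT5 peak at GNAS and 3 under another at KCNQ1OT1. Counted once per site, where a site is a union of overlapping peaks, 4 of 10 TRIM28 sites had Pol II (exact interval 12.2% to 73.8%) against 26.3% of 42225 in the series, and 6 of 10 had SPT5 (26.2% to 87.8%) against 40.1%. These intervals include the whole-list shares. Without GNAS, Pol II overlapped 4 of 10 TRIM28 peaks and SPT5 6 of 10, with the same intervals, which include 28.6% and 43.7%. The intervals also included the whole-list share with no flank or 10 kb, at a −log10 q of at least 5 and with peaks within 500 bp merged. They did not include it when the summit had to lie in the widened span or the overlap had to reach 50% of the shorter peak. Among the 5 O-GlcNAc peaks, SPT5 overlapped all 5 against 88.2%, TRIM28 4 (80.0%) against 59.5%, Pol II 2 (40.0%, 5.27% to 85.3%) against 80.8%, and OGA none (upper exact bound 52.2%) against 6.7%.

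**Figure D4:**
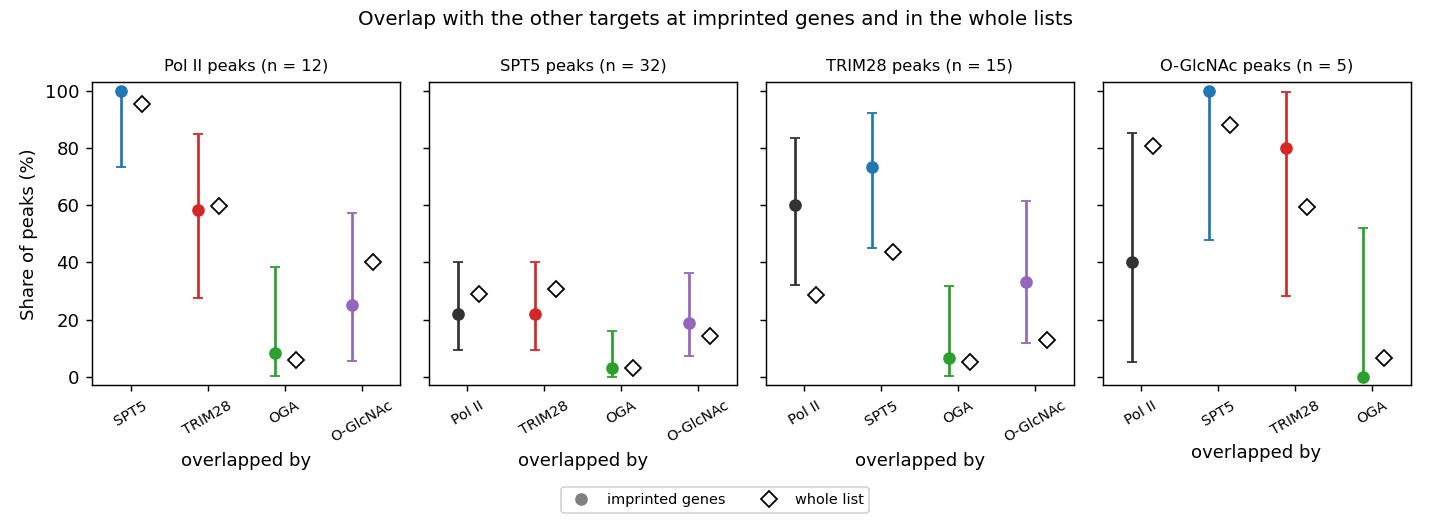
Share of Pol II, SPT5, TRIM28 and O-GlcNAc peaks (panels) overlapped by each other target (horizontal axis), in percent; filled circles are the peaks at the 8 imprinted genes with exact 95% binomial intervals for counting error, and open diamonds are the whole lists. The diamonds for TRIM28 peaks with Pol II and with SPT5, at 28.6% and 43.7%, lie under the intervals of the members, of which several share a site, but not under those counted per site or without GNAS.

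The 65 peaks formed 35 sites, of which 21 (60.0%) were SPT5 alone, against 40.0% of the 82618 sites in the series, and 4 (11.4%) were TRIM28 alone, against 29.7%. The bodies of GNAS and KCNQ1OT1 held 18 of the 21 SPT5 peaks without a partner. Of these 18, the 7 at KCNQ1OT1 all had a −log10 q below 5. At GNAS, those with values of 1.37, 4.31 and 4.98 did too, and the others passed 5. SPT5 peaks without a partner were 65.6% of the members and 59.0% of the whole SPT5 list. SPT5, TRIM28 and O-GlcNAc without Pol II made up 2 of the 35 sites, at PEG10 and MEST, against 155 of all 82618 (0.188%). Pol II, SPT5, TRIM28 and O-GlcNAc made up 2, at the KCNQ1OT1 start and at 49 kb of GNAS, against 5.82% of all sites.

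Some peaks lay just beyond the 5 kb limit. The nearest to it were TRIM28 peaks 1.23 kb upstream of the KCNQ1OT1 limit (fold enrichment 3.43, percentile 47.8) and 4.01 kb past the 3′ limit of PEG3 (4.20, percentile 69.0). An OGA peak with a fold enrichment of 12.2, percentile 97.7, lay 5.58 kb upstream of the GNAS limit (chr20:57403749-57404210) and was overlapped by O-GlcNAc (5.76, percentile 81.5) and by no other list. A TRIM28 peak 7.56 kb upstream of the MEST limit had a fold enrichment of 7.47, percentile 92.9, higher than the TRIM28 peak at the MEST start. The nearest members inside the limit, at KCNQ1OT1, were the Pol II, TRIM28 and SPT5 peaks about 3.7 kb upstream, with fold enrichments of 2.98, 2.95 and 2.40.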

How the data were processed

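ChIP-seq was made from BJAB cells fixed in 1% formaldehyde for 5 min, with 10 µg of antibody and 25 ng of DNA per library, per the labels' protocols. The build was hg19, and the tools named were Bowtie2 2.1.0, Trimmomatic 0.30 and bcl2fastq 2.17, per the submitters' processing notes. The sources used here do not give the peak caller, its control or its threshold. The files deposited by the authors hold 1 line per peak with a fold enrichment (a ratio), −log10 p and −log10 q values, a score, which was not used, and the summit position. Each of the 5 targets has its own list, with a minimum −log10 q of 1.30 to 1.33. Reads were not analysed here, so depth is unknown, and intervals cover counting error only.

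Peaks on chromosomes 1 to 22 and X were used. Counts, overlaps (at least 1 bp), percentiles within a list and exact binomial intervals were computed in Python 3.11.15 with numpy 2.4.6, pandas 2.3.3 and scipy 1.17.1; plots used matplotlib 3.10.9. Overlap code was tested on simulated data. The 8 genes, the lists and the alternatives were chosen with earlier results of these data known. Coordinates are printed for the highest peak of each list at each gene and for each OGA and O-GlcNAc peak. Each peak within 1 kb of a start is printed too. The other SNRPN, KCNQ1OT1, GNAS and PEG10 peaks printed were chosen after their values were seen. Alternatives were a stricter q, other flanks, summit membership, other overlap rules, merged peaks, other start windows and shortened lists. Other imprinted genes, cell markers and motifs in peaks needed a genome or annotation of hg19 and were not analysed here.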

Additional observations from a re-analysis of the deposited data

How the results depend on the processing

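Leaving out GNAS was chosen after seeing the data. No paired analysis was possible because each target had 1 library. Counts of peaks held within 1.5 times under flanks of 0 or 10 kb and under summit membership. With a −log10 q of at least 5, SPT5 peaks fell from 32 to 20 and the other lists stayed within 1.5 times. The SPT5 peaks lost included all 7 without a partner in the body of KCNQ1OT1. With every list shortened to 2561 peaks by −log10 p, fewer peaks were left by construction: 4 Pol II, 3 SPT5, 1 TRIM28, 1 O-GlcNAc and 1 OGA, and genes with a peak at the start became 0 for O-GlcNAc, 1 for TRIM28 and 2 for SPT5. In those lists Pol II overlapped 100% of SPT5, 0% of TRIM28 and 0% of O-GlcNAc peaks; TRIM28 overlapped 0% of Pol II, 0% of SPT5 and 100% of O-GlcNAc peaks; O-GlcNAc overlapped 0% of Pol II, 0% of SPT5 and 100% of TRIM28 peaks; SPT5 overlapped 0% of TRIM28 and 0% of O-GlcNAc peaks; and OGA overlapped 0% of Pol II, SPT5 and TRIM28 peaks. With summits required within 250 bp, SPT5 marked 50% of Pol II and 33.3% of TRIM28 peaks. By the same rule it marked 32.9% of the whole TRIM28 list, near the share of the members. The whole-list share for Pol II peaks by this rule is not given here, and the cause of the lower shares was not tested. Without GNAS, OGA overlapped 0% of Pol II, SPT5 and TRIM28 peaks, and TRIM28 overlapped 100% of the 3 O-GlcNAc peaks left. The other 124 of 144 overlap shares stayed within the exact interval of the reported share. That interval is wide. For TRIM28 peaks overlapped by Pol II and by SPT5, the whole-list share stayed below it under summit membership and an overlap of 50% of the shorter peak. It fell inside with no flank, a 10 kb flank, a −log10 q of at least 5, merged peaks, summits within 250 bp or GNAS left out. With no flank the shares of the 11 peaks left were still 54.5% and 72.7%. With summits within 250 bp Pol II marked 46.7% against 22.1%, and SPT5 33.3% against 32.9%. Shortened lists left 1 TRIM28 peak, with an interval of 0% to 97.5%, too wide to decide. Percentiles moved outside their counting interval in 38 of 39 alternatives, and 8 of them by over 1.5 times or across the list median. With a −log10 q of at least 5 these were OGA at GNAS from 32.8 to 14.5, O-GlcNAc at GNAS from 10.6 to 3.43, TRIM28 at GNAS from 51.4 to 34.6, SPT5 at MEST from 63.2 to 45.3, TRIM28 at MEST from 41 to 24.1 and SPT5 at PEG10 from 60.1 to 40.6, where only the stronger peaks are left to rank against. By −log10 p they were O-GlcNAc at GNAS from 10.6 to 18.8 and TRIM28 at MEST from 41 to 62.9. The unknown depth limits what the absence of a peak can show.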

Other observations

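PLAGL1 had peaks at a place upstream of its widened span that the counts above leave out. A Pol II peak at chr6:144384599-144385972 (fold enrichment 11.2, percentile 94.4) had its summit 55.9 kb upstream of the start of the PLAGL1 span. It was overlapped by SPT5 at chr6:144384442-144385940 (13, percentile 97.4) and by TRIM28 at chr6:144384836-144385484 (4.49, percentile 73.7), and by neither OGA nor O-GlcNAc. In the RefSeq table, in GRCh38, the first listed PLAGL1 start lies 56340 bp upstream of the third. Whether the Pol II peak is at that start was not determined, since coordinates were not converted between builds.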
